A study of Mus musculus with 12 samples.

Results

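The 9 genes described here are antagonists and effectors of Wnt signalling: the cytoplasmic or membrane antagonists Nkd1, Nkd2, Axin2 and Apcdd1, the ligand Wnt5a, beta-catenin itself (Ctnnb1), and its transcription factor partners Lef1, Tcf7 and Tcf7l2. They were taken by gene symbol from a table of 23940 mouse genes, in which all 9 were found. Of these, 8 had a mean of at least 1 FPKM (sequenced fragments per kilobase of transcript, relative to all that mapped) and entered the test over 12117 genes; Nkd1, with a mean of 0.267 FPKM over all libraries, did not. The data are messenger RNA levels in 12 tumors of YUMM1.7, a mouse melanoma line that carries an activated Braf allele. In 6 tumors the cells overexpressed PD-L2, the immune checkpoint ligand encoded by Pdcd1lg2, and in 6 they did not (control). Within each of these, 3 tumors received vehicle (DMSO in the sample titles) and 3 a BRAF inhibitor (BRAFi), whose tumors the series design describes as resistant. The 4 groups of 3 tumors are named by construct and treatment, as in PD-L2 vehicle. All 12 tumors share the 1 parent line and an immunodeficient host, given as NSG in the sample labels and as NOD/SCID in the series design. The inhibitor's name, dose and duration, the vector and promoter of the PD-L2 construct, whether the PD-L2 cells are 1 clone, and the age of the mice are not stated in the sources used.

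In canonical Wnt signalling, a Wnt protein bound to a Frizzled receptor and its LRP co-receptor acts through Dishevelled to stop the destruction complex of Axin, APC, casein kinase and GSK3 from degrading beta-catenin, which then enters the nucleus and activates genes together with TCF and LEF factors. Several antagonists are themselves targets of the pathway and feed back on it: Naked proteins (Nkd1, Nkd2) bind Dishevelled, Axin2 rebuilds the destruction complex, and Apcdd1 acts at the membrane on Wnt and LRP proteins. Wnt5a acts mainly outside the beta-catenin branch, through ROR receptors and the planar polarity route, and in melanoma it is known for its association with invasive cells.

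The promoters of Nkd2, Axin2 and Lef1 are shown because the first pair belongs to the members lowest in PD-L2 vehicle tumors and Lef1 is the member that separated BRAFi from vehicle tumors. Each is the 250 bases before the most 5′ start listed by RefSeq (build GRCm38.p6), written 5′ to 3′ on the gene's strand, and capitals mark the TCF core CTTTG on either strand. Nkd2 spans chr13:73847632-73847881 on the minus strand, Axin2 chr11:108920099-108920348 on the plus strand and Lef1 chr3:131110047-131110296 on the plus strand.
Nkd2: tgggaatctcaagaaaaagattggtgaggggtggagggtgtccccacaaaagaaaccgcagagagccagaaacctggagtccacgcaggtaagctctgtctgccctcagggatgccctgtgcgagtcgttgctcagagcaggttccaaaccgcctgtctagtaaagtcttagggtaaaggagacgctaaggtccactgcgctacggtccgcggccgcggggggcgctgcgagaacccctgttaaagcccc
Axin2: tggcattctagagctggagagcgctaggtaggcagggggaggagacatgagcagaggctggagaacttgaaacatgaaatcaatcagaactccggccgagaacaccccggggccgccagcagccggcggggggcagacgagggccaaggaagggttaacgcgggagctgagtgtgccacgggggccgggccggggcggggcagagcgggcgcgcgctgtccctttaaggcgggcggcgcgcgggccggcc
Lef1: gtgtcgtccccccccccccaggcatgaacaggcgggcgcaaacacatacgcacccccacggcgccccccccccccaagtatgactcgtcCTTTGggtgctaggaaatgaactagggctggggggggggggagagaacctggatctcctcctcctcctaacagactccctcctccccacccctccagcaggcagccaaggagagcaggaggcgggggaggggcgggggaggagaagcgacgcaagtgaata
Promoters of 7 of the 9 members were in the table, those of Nkd1, Nkd2, Axin2, Lef1, Tcf7, Tcf7l2 and Ctnnb1. The core CTTTG, searched on both strands, was found in Lef1, where it begins 161 bases before the start, and in Tcf7l2, where it begins 111 bases before it. Of the promoters of 27025 genes, 48.8% hold that core. The longer TCF words, the core followed by AA, AT, TA or TT, were in none of the 7 windows and in 14.9% of all promoters, and the AP-1 word TGAGTCA, which a search of both strands also finds as TGACTCA, was in none of the 7 and in 4.43% of all.

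Pdcd1lg2 checked the labels: it stood at 0.133 to 0.278 FPKM in control vehicle, 0.863 to 3.54 in control BRAFi, 41.3 to 114 in PD-L2 vehicle and 20.8 to 176 in PD-L2 BRAFi tumors. Read depth is unknown, because the values gave no recoverable whole reads, so each error below is either an SD between tumors or an SE from the fit. Libraries of 1 group had Spearman correlations of 0.948 to 0.969, and libraries of different groups 0.941 to 0.968. Melanocyte genes were low (the list of 7 summed to 3.82 to 29.6 FPKM, the highest value coming with 24.9 FPKM of Sox10 in control BRAFi tumor 1), and T and NK lymphocyte genes, 9 in the list, summed to 0.435 to 2.44 FPKM, with Cd3g listed at 0 in all 12 libraries. PD-L2 BRAFi tumor 3 stood apart with 142 FPKM of the keratins Krt5, Krt14 and Krt17, against at most 0.232 in any other tumor, and in PD-L2 BRAFi tumor 2 the small RNA gene Mir2137, listed at 0 elsewhere, took 16.1% of the summed FPKM.

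Each difference was tested with limma on log2(FPKM + 1) across the 12117 genes, two-sided, with Benjamini-Hochberg adjustment over all of them and a threshold of 0.05; fold changes on this scale understate those of low genes. The p-values measure the spread between the sampled tumors. In bulk tumors, fewer cells of a type and less RNA per cell cannot be told apart. Between BRAFi and vehicle in control tumors, 2 of the 8 tested members rose (Lef1 and Tcf7) and 0 fell, where 3.51% of all tested genes rose and 3.91% fell. In PD-L2 tumors 1 member rose with BRAFi (Nkd2), where 0.182% of all genes did. Averaged over both backgrounds, 5 members rose with BRAFi (Nkd2, Wnt5a, Lef1, Tcf7 and Apcdd1) and 0 fell, where 13.4% of all genes rose and 11.2% fell. The median log2 fold change of the 8 members was 0.76 in that average, against 0.01 over all tested genes.

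PD-L2 and control tumors were compared under each treatment. Under vehicle 0 members and 0.0% of all genes passed with limma, while 5 members and 1319 genes had an unadjusted p under 0.05. Under BRAFi 0 members passed, against 0.0743% of all genes, with 2 members and 856 genes at an unadjusted p under 0.05. Averaged over both treatments, 1 member, Nkd2, fell in PD-L2 tumors, where 0.033% of all genes did. The median log2 difference of the 8 members was -0.45 under vehicle and -0.01 under BRAFi, against 0.01 and -0.01 over all genes. The plot of fitted differences shows these 4 comparisons and the interaction side by side.

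**Figure D1:**
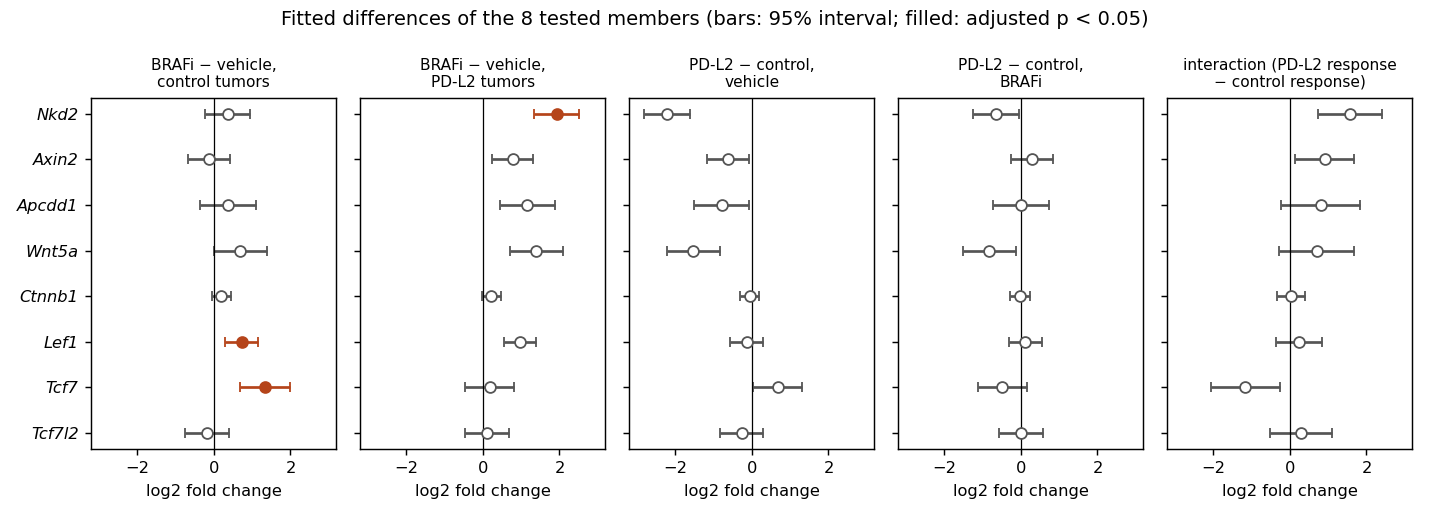
Log2 fold changes on the log2(FPKM + 1) scale with 95% intervals for the 8 tested members in 5 comparisons; filled points passed the threshold of 0.05. Lef1 and Tcf7 passed in control tumors and Nkd2 in PD-L2 tumors, and the Nkd2 point lies at -2.22 in the comparison of PD-L2 with control under vehicle without passing.

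Nkd2, the Dishevelled-binding antagonist, was lowest in the PD-L2 vehicle tumors. It was measured at 9.0, 8.0 and 12.03 FPKM in the control vehicle tumors and at 1.53, 1.28 and 1.02 FPKM in the PD-L2 vehicle tumors. With BRAFi it was at 15.2, 13.5 and 9.60 FPKM in control tumors and at 7.61, 11.9 and 4.83 FPKM in PD-L2 tumors. The 3 PD-L2 vehicle tumors lay below all 9 others, and the other 3 groups overlapped their neighbours in the order PD-L2 BRAFi, control vehicle, control BRAFi. The mean under vehicle was 7.56 times higher in control than in PD-L2 tumors.

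In the fit, the PD-L2 difference of Nkd2 under vehicle was -2.22 ± 0.27 (log2, SE). Its unadjusted p of 6.56e-06 ranked 1 among the 12117 genes, ahead of the overexpressed Pdcd1lg2 (5.80 ± 0.72), whose unadjusted p in the limma fit was 8.59e-06. Limma's adjusted p was 0.0521 for both genes, just outside the threshold. Over 25 alternative fits the Nkd2 difference ranged from -2.82 to -2.06, with adjusted p from 0.00383 to 0.303, and passed in 8, among them the fits without PD-L2 BRAFi tumor 2 or 3. Under BRAFi the difference was -0.65 ± 0.27 (limma adjusted p = 0.663). In PD-L2 tumors Nkd2 rose with BRAFi by 1.93 ± 0.27 (limma adjusted p = 0.028), while in control tumors its difference was 0.36 ± 0.27 (limma adjusted p = 0.371).

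The test of whether these BRAFi responses differ gave an interaction of 1.57 ± 0.38 for Nkd2, with an unadjusted p of 0.00185 and a limma adjusted p of 0.83. The comparison of PD-L2 with control under vehicle and that of BRAFi with vehicle in PD-L2 tumors share the 3 PD-L2 vehicle libraries. The rise in PD-L2 tumors was lost when any of 5 single libraries was left out (each PD-L2 vehicle tumor, PD-L2 BRAFi tumor 1 or control vehicle tumor 2), with values of 1.64 to 2.21 over all libraries left out in turn. PD-L2 BRAFi tumor 2, the highest of its group for Nkd2, was the lowest for Pdcd1lg2, at 20.8 FPKM. Tumors 1 and 3 held 176 and 171 FPKM of Pdcd1lg2, with Nkd2 at 7.61 and 4.83 FPKM. The PD-L2 vehicle tumors held less of both, at 41.3 to 114 FPKM of Pdcd1lg2 and 1.02 to 1.53 FPKM of Nkd2. A link of Nkd2 to Pdcd1lg2 was not tested. Without PD-L2 BRAFi tumor 2, Nkd2 rose by 1.64 (limma adjusted p = 0.0468). The lower level in PD-L2 tumors averaged over treatments was -1.43 ± 0.19 (limma adjusted p = 0.0259), and the rise with BRAFi averaged over backgrounds was 1.14 ± 0.19 (limma adjusted p = 0.00746). The latter passed in all 24 alternative fits, at 1.00 to 1.44.

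Nkd1, the other mammalian Naked gene, was at 0.282, 0.130 and 0.559 FPKM in control vehicle and at 0.101, 0.158 and 0.116 FPKM in PD-L2 vehicle tumors. With BRAFi it was at 0.229, 0.443 and 0.320 FPKM in control and at 0.284, 0.407 and 0.172 FPKM in PD-L2 tumors. All 12 values were below the limit for testing, and the vehicle groups overlapped. Nkd2 made up 90.9% ± 2.55 (SD, n = 3) of the summed Naked FPKM in PD-L2 vehicle tumors and 96.6% to 97.4% as means of the other groups. In a fit without the filter, Nkd1 differed by -0.22 ± 0.11 between PD-L2 and control under vehicle (limma adjusted p = 0.541).

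**Figure D2:**
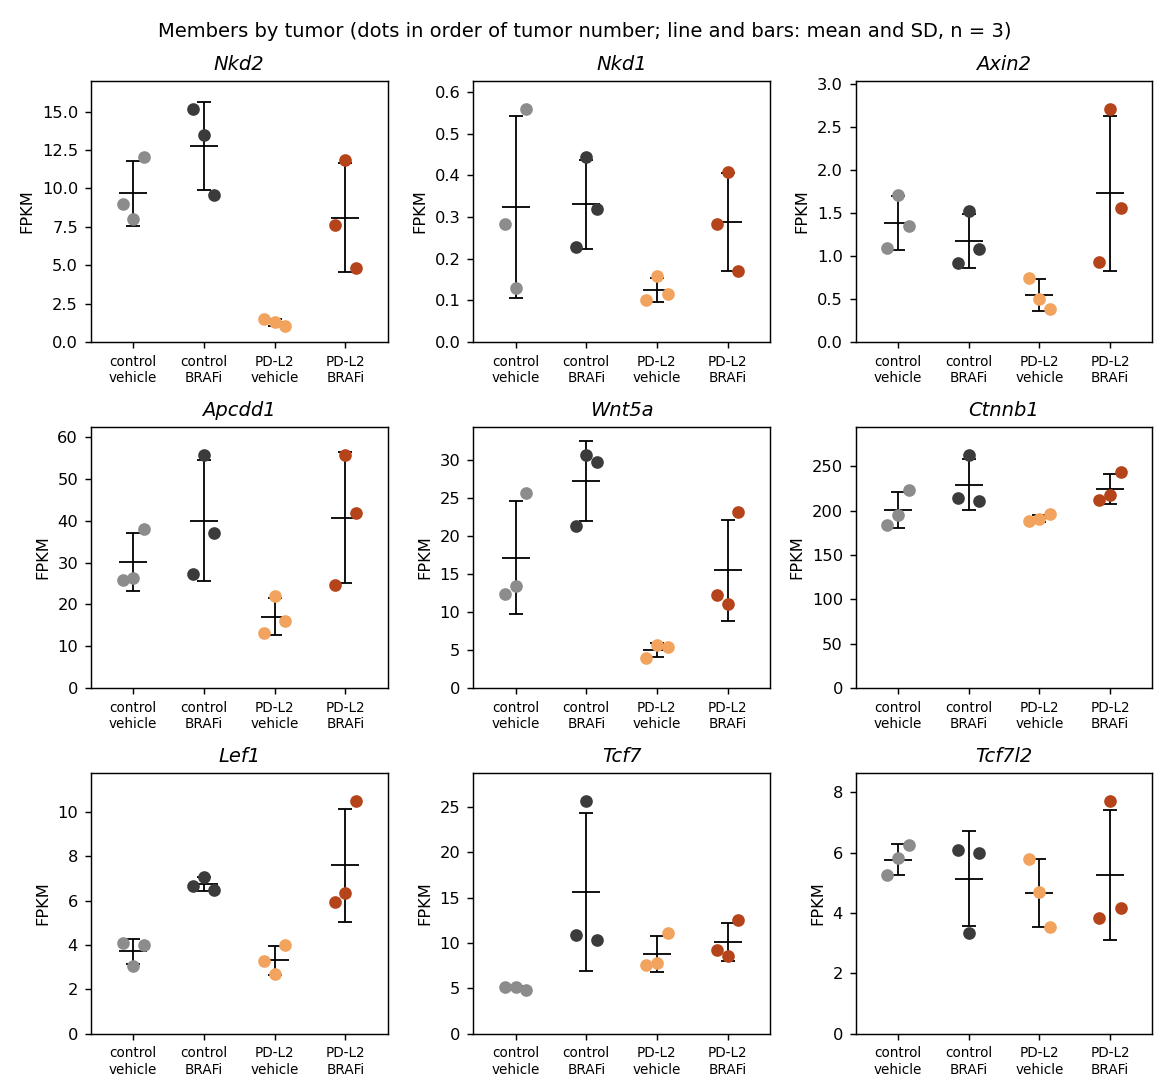
FPKM of the 9 genes in each tumor (dots, in order of tumor number) with the mean and SD of each group (n = 3); every vertical axis is linear and starts at 0. The 3 PD-L2 vehicle tumors lie below all others for Nkd2, Axin2, Apcdd1 and Wnt5a, and the 6 BRAFi tumors lie above the 6 vehicle tumors for Lef1.

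Axin2, a scaffold of the destruction complex and a direct beta-catenin target, was low throughout. It was at 1.10, 1.71 and 1.35 FPKM in control vehicle, 0.918, 1.53 and 1.08 in control BRAFi, 0.746, 0.507 and 0.385 in PD-L2 vehicle, and 0.935, 2.71 and 1.56 in PD-L2 BRAFi tumors. The PD-L2 vehicle tumors were again below the 9 others, which overlapped. The PD-L2 difference under vehicle was -0.62 ± 0.25 (limma adjusted p = 0.42) and the BRAFi difference in PD-L2 tumors was 0.78 ± 0.25 (limma adjusted p = 0.143), so Axin2 passed in no comparison. Its interaction was 0.91 ± 0.35, with an unadjusted p of 0.0242 and a limma adjusted p of 0.956.

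Apcdd1, a membrane-bound inhibitor of Wnt signalling, was at 25.9, 26.4 and 38.1 FPKM in control vehicle and at 13.2, 21.9 and 15.9 FPKM in PD-L2 vehicle tumors. With BRAFi it was at 27.4, 55.8 and 37.0 FPKM in control and at 24.6, 55.8 and 41.8 FPKM in PD-L2 tumors. The PD-L2 vehicle tumors formed the lowest group without overlap. The difference between PD-L2 and control under vehicle was -0.79 ± 0.33 (limma adjusted p = 0.423), and under BRAFi it was 0.01 ± 0.33, with a 95% interval of -0.72 to 0.73.

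Averaged over backgrounds, Apcdd1 rose with BRAFi by 0.76 ± 0.23 (limma adjusted p = 0.0371). That call passed in 12 of 24 alternatives, and leaving out any of 8 single libraries ended it (control vehicle 1 or 2, control BRAFi 2 or 3, PD-L2 vehicle 1 or 3, PD-L2 BRAFi 2 or 3), at 0.63 to 0.92. BRAFi fold changes also moved with transcript length across genes (Spearman 0.468 over 12039 genes for the average), and the longest listed Apcdd1 transcript, 10879 nt, exceeds that of 98.5% of tested genes. With the length trend removed, the Apcdd1 average was 0.39 (limma adjusted p = 0.192).

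In 4 of the 8 tested members (Nkd2, Axin2, Apcdd1 and Wnt5a), all 3 PD-L2 vehicle tumors lay below the 9 other libraries, and in 0 they lay above. Across the 12117 genes 1.88% had that order and 2.11% the opposite. This pattern was chosen after the values were seen. Of the 8 endothelial markers, 1 had the same order: Cdh5, which encodes VE-cadherin, was at 11.7 to 14.2 FPKM in PD-L2 vehicle tumors and at 22.7 to 120 FPKM in the other 9. The 8 summed to 37.6 to 45.1 FPKM in PD-L2 vehicle tumors and to 54.2 to 154 FPKM elsewhere, a separation that rested on Cdh5. Without it the sums overlapped, at 25.8 to 30.8 FPKM against 23.1 to 66.3 FPKM, and each of the other 7 genes overlapped too. Under vehicle 0 of 7 tested endothelial markers passed, with a median difference of -0.21, and none was listed at 0 in every library. The pericyte gene Rgs5 was at 6.77 to 7.80 FPKM in PD-L2 vehicle tumors and at 11.7 to 63.5 FPKM elsewhere. Its PD-L2 difference under vehicle was -1.32 ± 0.42 (limma adjusted p = 0.335). Cspg4, of the same marker list, went the other way, at 1.22 ± 0.23 (limma adjusted p = 0.227). Pdgfrb differed by -0.29 ± 0.26 (limma adjusted p = 0.699). The list of 9 fibroblast and pericyte genes was not low in PD-L2 vehicle tumors, at 416 to 722 FPKM against 355 to 767 FPKM elsewhere. Of that sum, Dcn alone held 279 to 469 FPKM in PD-L2 vehicle tumors. The part of vessel content in the levels of these 4 members was not tested.

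Wnt5a, the ligand, was at 12.3, 13.4 and 25.7 FPKM in control vehicle and at 3.94, 5.69 and 5.38 FPKM in PD-L2 vehicle tumors. With BRAFi it was at 21.2, 30.6 and 29.7 FPKM in control and at 12.2, 11.05 and 23.1 FPKM in PD-L2 tumors. The PD-L2 vehicle tumors were lowest without overlap, while each of the other groups overlapped the next in order. The PD-L2 difference under vehicle was -1.53 ± 0.31, with an unadjusted p of 0.000528 that ranked 28 among all genes and a limma adjusted p of 0.227. With BRAFi, Wnt5a differed by 0.69 ± 0.31 in control tumors (limma adjusted p = 0.156) and by 1.40 ± 0.31 in PD-L2 tumors (limma adjusted p = 0.0755). Without control vehicle tumor 3, the highest of its group, the BRAFi difference in control tumors was 1.01 and passed (limma adjusted p = 0.0474). Only this 1 of 25 alternatives passed, over a range of 0.39 to 1.01 (limma adjusted p up to 0.438). That tumor also held 379 FPKM of the 7 skeletal muscle markers, against 6.32 and 1.75 FPKM in tumors 1 and 2. PD-L2 BRAFi tumor 3 (145 FPKM) and PD-L2 vehicle tumor 2 (85.4 FPKM) were likewise highest of their groups for muscle markers and Wnt5a. In control BRAFi tumors the highest muscle sum, 9.55 FPKM in tumor 1, came with the lowest Wnt5a. A link of Wnt5a to muscle content was not tested.

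Averaged over backgrounds Wnt5a rose with BRAFi by 1.04 ± 0.22 (limma adjusted p = 0.0122). The call passed in all 24 alternatives, with the lowest value, 0.78, after removal of the length trend. Among the 19 Wnt genes, Wnt5a made up 39.5% ± 4.45 (SD, n = 3) of the summed ligand FPKM in control vehicle tumors and 18.0% ± 5.16 in PD-L2 vehicle tumors. Under BRAFi its shares were 36.4% ± 9.25 in control and 32.3% ± 10.3 in PD-L2 tumors. The sum itself was 42.5 ± 14.1 FPKM in control vehicle, 80.0 ± 33.8 in control BRAFi, 28.5 ± 3.97 in PD-L2 vehicle and 47.0 ± 6.0 in PD-L2 BRAFi tumors, most of it Wnt7b and Wnt5a.

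**Figure D3:**
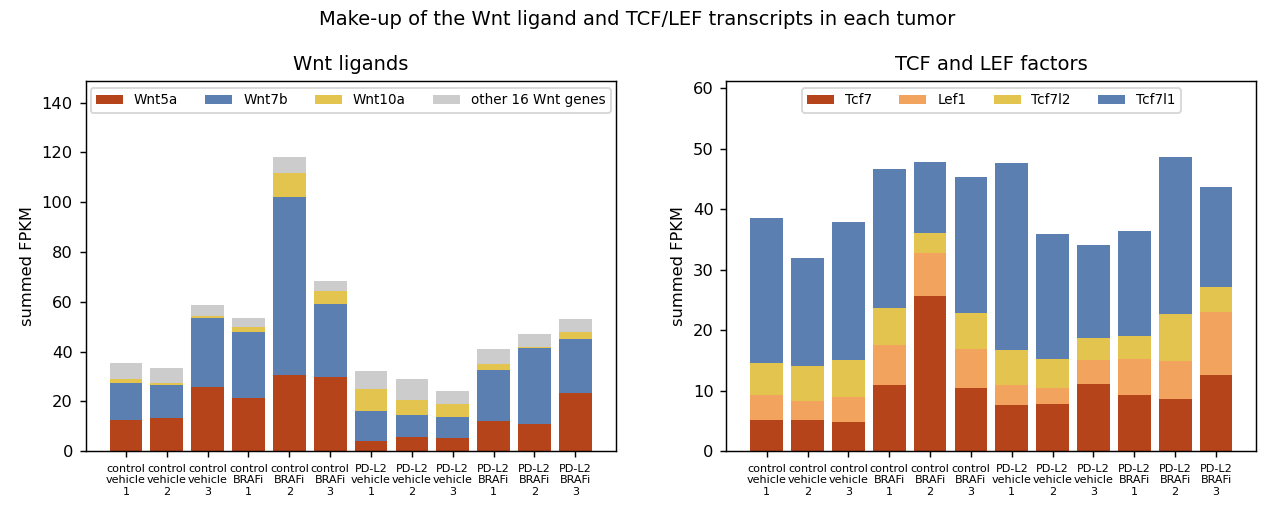
Stacked FPKM of the 19 Wnt genes (left) and of the 4 TCF and LEF genes (right) in each of the 12 tumors. Wnt5a is the lower block on the left and shrinks to 3.94 to 5.69 FPKM in the PD-L2 vehicle tumors, where Wnt10a stands at 5.01 to 8.62 FPKM; on the right Tcf7l1 is the largest block except in control BRAFi tumor 2, where Tcf7 reaches 25.7 FPKM.

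Ctnnb1, the central transducer, ranged from 183 to 263 FPKM. It was at 183, 195 and 223 FPKM in control vehicle, 214, 263 and 211 in control BRAFi, 188, 190 and 196 in PD-L2 vehicle, and 211, 217 and 243 in PD-L2 BRAFi tumors. The control groups overlapped and the PD-L2 groups did not. The BRAFi average was 0.21 ± 0.08, with a 95% interval of 0.03 to 0.39 and a limma adjusted p of 0.0859. The PD-L2 average was -0.05 ± 0.08, with a 95% interval of -0.23 to 0.14. These are transcript levels and carry no measure of beta-catenin protein.

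Lef1, a beta-catenin partner that is also its target, was at 4.07, 3.05 and 4.0 FPKM in control vehicle and at 3.26, 2.68 and 3.98 FPKM in PD-L2 vehicle tumors. With BRAFi it was at 6.67, 7.07 and 6.49 FPKM in control and at 5.92, 6.34 and 10.5 FPKM in PD-L2 tumors. Every BRAFi tumor was above every vehicle tumor, an order seen in 4.97% of tested genes, and within each treatment the PD-L2 and control tumors overlapped. Lef1 rose with BRAFi by 0.73 ± 0.19 in control tumors (limma adjusted p = 0.0484) and differed by 0.97 ± 0.19 in PD-L2 tumors (limma adjusted p = 0.0673). The interaction, 0.24 ± 0.27, had a 95% interval of -0.36 to 0.85.

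Averaged over backgrounds Lef1 rose by 0.85 ± 0.14 (limma adjusted p = 0.00706), and this call passed in all 24 alternatives, at 0.73 to 1.00. The call in control tumors alone passed in 9 of 25 and ended without any of 9 single libraries (control vehicle 1 or 2, any control BRAFi or PD-L2 vehicle tumor, PD-L2 BRAFi 1), at 0.62 to 0.78. It also ended with the length trend removed, at 0.69 (limma adjusted p = 0.0908). The highest Lef1 value came from PD-L2 BRAFi tumor 3, the tumor with keratin transcripts, in which the 9 keratinocyte and hair follicle genes summed to 174 FPKM against 0.906 to 2.97 FPKM in the 11 other tumors. Without that tumor the average rise was 0.73 (limma adjusted p = 0.0118) and the difference in PD-L2 tumors was 0.74 (limma adjusted p = 0.185). Macrophage genes, 9 in the list, summed to 1920 to 3060 FPKM in control vehicle and 900 to 2080 FPKM in PD-L2 vehicle tumors, and to 653 to 1320 and 469 to 1610 FPKM under BRAFi. In the BRAFi average 2 of the 9 fell and 0 rose. The fibroblast and pericyte list summed to 355 to 494 FPKM in control vehicle and 582 to 767 FPKM in control BRAFi tumors, without overlap. In PD-L2 tumors it summed to 416 to 722 FPKM with vehicle and 506 to 676 FPKM with BRAFi. It had 3 of 9 genes higher in the BRAFi average and 0 lower, and over all genes 13.4% were higher and 11.2% lower. The part of macrophage and stromal content in the BRAFi rises was not tested.

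Tcf7, which encodes TCF1, was at 5.18, 5.18 and 4.86 FPKM in control vehicle and at 10.9, 25.7 and 10.4 FPKM in control BRAFi tumors. In PD-L2 tumors it was at 7.60, 7.78 and 11.1 FPKM with vehicle and at 9.22, 8.58 and 12.5 FPKM with BRAFi. The control vehicle tumors were below the 9 others, an order not counted over all genes, and the remaining groups overlapped their neighbours. Taken singly, 19.1% of tested genes were higher without overlap in control BRAFi than in control vehicle tumors. For PD-L2 vehicle over control vehicle tumors that share was 10.0%. Tcf7 rose with BRAFi by 1.34 ± 0.29 in control tumors (limma adjusted p = 0.0354), and without control BRAFi tumor 2, the highest, the difference was 0.94 (limma adjusted p = 0.0776). Its call there passed in 14 of 25 alternatives and also ended without control vehicle 1 or 2, control BRAFi 3, PD-L2 vehicle 1 or 2, or PD-L2 BRAFi 1, and with the length trend removed, at 1.44 (limma adjusted p = 0.0565).

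In PD-L2 tumors the BRAFi difference of Tcf7 was 0.18 ± 0.29 (limma adjusted p = 0.76), and the PD-L2 difference under vehicle was 0.68 ± 0.29 (limma adjusted p = 0.431). The interaction was -1.16 ± 0.41, opposite in sign to that of Nkd2, with an unadjusted p of 0.0174 and a limma adjusted p of 0.956. Across all genes 0.0165% passed the interaction test and 542 had an unadjusted p under 0.05; 0 of the 8 members passed and 3 had an unadjusted p under 0.05. The BRAFi average of Tcf7 was 0.76 ± 0.21 (limma adjusted p = 0.0259), which passed in 20 of 24 alternatives and ended without control vehicle tumor 1, PD-L2 vehicle tumor 1 or 2, or PD-L2 BRAFi tumor 3, at 0.56 to 0.87. Tcf7 and Lef1 are known as T-cell genes. The 9 T and NK lymphocyte markers summed to 0.435 to 0.65 FPKM in control vehicle and to 0.84 to 2.44 FPKM in control BRAFi tumors, which did not overlap, and to 0.612 to 0.686 and 0.731 to 1.18 FPKM in the PD-L2 groups, which did not either. The separation in control tumors rested on Il7r, at 0.242 to 0.466 FPKM with vehicle and 0.703 to 0.945 FPKM with BRAFi. Without Il7r the control sums overlapped, while the PD-L2 sums still did not. Cd3d, Cd3e, Cd3g, Cd2 and Cd5 were each at most 0.113 FPKM in every tumor. Klrb1c, of the same list, was at 0 to 0.0914 FPKM in control vehicle and 0.059 to 1.14 FPKM in control BRAFi tumors, which overlapped. In PD-L2 tumors it was at 0 to 0.0517 FPKM with vehicle and 0.124 to 0.201 FPKM with BRAFi, without overlap. None of the 9 reached the mean needed for testing, and the part of lymphocyte content in the Tcf7 and Lef1 rises was not tested.

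Tcf7l2, which encodes TCF4, was at 5.25, 5.82 and 6.26 FPKM in control vehicle, 6.08, 3.33 and 6.01 in control BRAFi, 5.79, 4.70 and 3.54 in PD-L2 vehicle, and 3.84, 7.73 and 4.18 in PD-L2 BRAFi tumors. All 4 groups overlapped. Its BRAFi average was -0.03 ± 0.18, with a 95% interval of -0.44 to 0.37. Of the summed TCF and LEF FPKM, Tcf7l1, the fourth gene of the family, held 59.4% ± 3.31 in control vehicle and 41.0% ± 14.5 in control BRAFi tumors (SD, n = 3), while Tcf7 held 14.2% ± 1.82 and 33.4% ± 17.8. In PD-L2 tumors the Tcf7 share was 23.5% ± 8.5 with vehicle and 23.9% ± 5.61 with BRAFi. The Lef1 share was 10.2% ± 0.582 and 14.5% ± 0.306 in control tumors, and 8.68% ± 2.63 and 17.8% ± 5.63 in PD-L2 tumors.

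The groups compared did not overlap for 2 members higher with BRAFi in control tumors (19.1% of all genes) and 6 higher with BRAFi in PD-L2 tumors (15.6%). Those 6 were Nkd2, Axin2, Apcdd1, Wnt5a, Lef1 and Ctnnb1. Between PD-L2 and control under vehicle, 4 were lower (10.5% of all genes) and 1, Tcf7, was higher (10.0%). Under BRAFi 0 of the 8 were free of overlap, against 11.5% of all genes in either direction.

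The other genes of the pathway were counted in the same way. Of 111 other genes in 9 Wnt lists, 66 were tested. In control tumors 3 rose with BRAFi and 0 fell: the kinase Gsk3b (0.78 ± 0.20, limma adjusted p = 0.0439), the coactivator Ep300 (0.70 ± 0.19) and the target gene Myc (0.88 ± 0.23). Gsk3b passed in 11, Ep300 in 10 and Myc in 10 of 25 alternatives. Of the single libraries left out, Gsk3b held without control vehicle 3, PD-L2 BRAFi 2 or PD-L2 BRAFi 3, Ep300 without the first or last of these, and Myc without either of the PD-L2 BRAFi tumors. With the length trend removed 0 of the 3 passed in control tumors. In the BRAFi average 16 rose and 2 fell, with a median of 0.16, where 13.4% of all genes rose and 11.2% fell. In PD-L2 tumors with BRAFi, in both PD-L2 comparisons, in the PD-L2 average and in the interaction, 0 of the 66 passed with limma; the shares of all genes passing are given above.

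Among ligands in the BRAFi average, 1 of 5 other tested genes rose, Wnt7b (1.14 ± 0.26, limma adjusted p = 0.0155), and 1 fell, Wnt10b (-0.65 ± 0.16, limma adjusted p = 0.019). Of 11 receptors 2 rose, Fzd1 (0.73) and the co-receptor Lrp6 (0.46). Of 3 R-spondin pathway genes 2 rose, the agonist Rspo4 (1.59 ± 0.51) and the receptor Lgr6 (1.32 ± 0.43), both of which no longer passed without PD-L2 BRAFi tumor 3, the tumor with keratin transcripts, at 1.26 and 0.98. Rspo4 passed in 9 of 22 alternatives and Lgr6 in 8 of 23. Of the single libraries left out, Lgr6 held without control BRAFi 1 or PD-L2 BRAFi 2, and Rspo4 without these or control BRAFi 3. Without control BRAFi tumor 2, Rspo4 fell below the filter and was not tested, which left 11 fits with a library left out. Of 8 other secreted or membrane antagonists 0 passed with limma; Dkk2 differed by 0.52 ± 0.20 (limma adjusted p = 0.0835) and Sfrp2 by -1.52 ± 0.64 (limma adjusted p = 0.1).

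Of 13 other Dishevelled and destruction complex genes, 5 rose, among them Gsk3b (0.65), Apc (0.54) and Csnk1a1 (0.34), and 1 fell, the Dishevelled-binding Dact3 (-0.55). Of 12 other nuclear partners the coactivators Ep300 (0.62) and Crebbp (0.38) rose. Of 6 other beta-catenin targets Myc rose (0.59 ± 0.16, limma adjusted p = 0.0259). Of 6 other cadherin and catenin genes 3 rose: plakoglobin, Jup (1.21 ± 0.21, limma adjusted p = 0.00786), p120 catenin, Ctnnd1 (0.54), and N-cadherin, Cdh2 (0.64). Of 7 other tested planar polarity genes 0 passed, the lowest p-values belonging to Ryk (-0.17 ± 0.07, limma adjusted p = 0.105) and Vangl2 (0.22 ± 0.11, limma adjusted p = 0.166). The ROR receptor genes Ror1 and Ror2, of the same list, did not reach a mean of 1 FPKM and were not tested. Of the 16 genes named here as called in the BRAFi average, 10 no longer passed with the length trend removed. These were Lrp6 (0.12), Apc (0.13), Crebbp (0.01), Ctnnd1 (0.31), Csnk1a1 (0.28), Cdh2 (0.51), Fzd1 (0.65), Dact3 (-0.52), Rspo4 (1.7) and Lgr6 (1.07). Wnt7b, Wnt10b, Jup, Myc, Gsk3b (0.34) and Ep300 (0.27) still passed. Jup, Wnt7b, Gsk3b and Ep300 passed in all 24 alternatives and Wnt10b in 19 of 20. In the remaining alternatives Wnt10b fell below the filter, which left 9 fits with a library left out. Between 11 and 21 of 24 passed for the other named genes called in the BRAFi average, Rspo4 and Lgr6 aside. Single libraries whose absence ended those calls were PD-L2 vehicle 1 for Ctnnd1, control vehicle 2 or PD-L2 vehicle 1 for Fzd1, and control BRAFi 3, PD-L2 vehicle 1 or PD-L2 BRAFi 3 for Lrp6. For Apc they were control BRAFi 2, PD-L2 vehicle 1 or 2, or PD-L2 BRAFi 3. For Dact3 they were control vehicle 1, control BRAFi 1, PD-L2 vehicle 1 or 2, or PD-L2 BRAFi 3, and for Myc control vehicle 1 or 2, PD-L2 vehicle 1 or 2, or PD-L2 BRAFi 1 or 3. Cdh2, Csnk1a1 and Crebbp each lost the call without any of 9 or more of the 12 libraries.

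**Figure D4:**
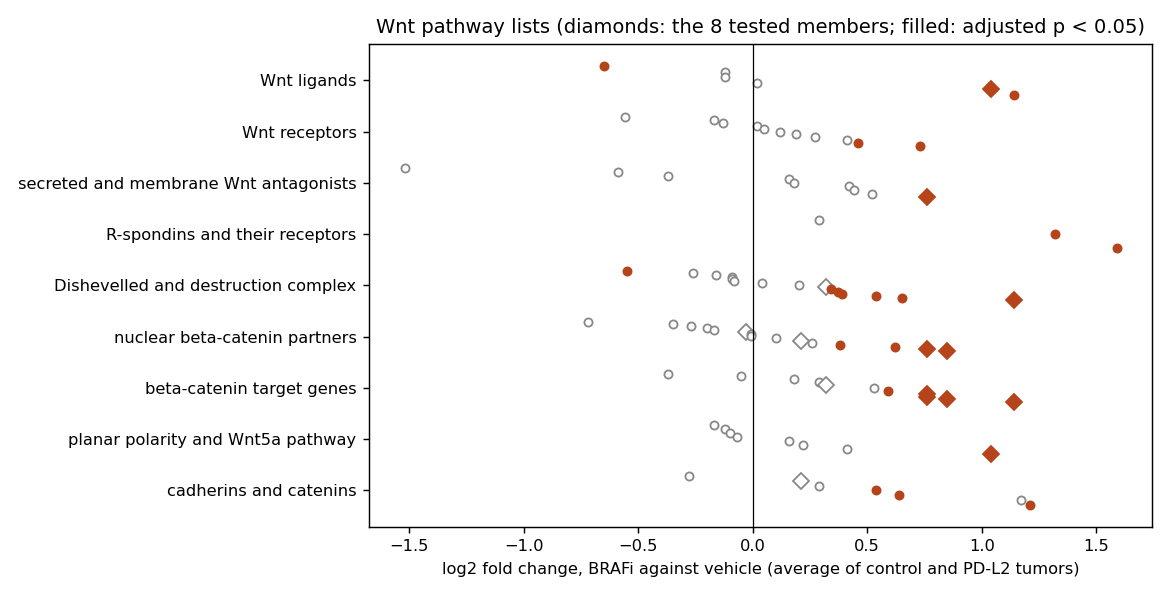
Log2 fold changes with BRAFi, averaged over control and PD-L2 tumors, of every tested gene in 9 Wnt pathway lists; diamonds are the members, circles the other genes, and filled symbols passed the threshold of 0.05. Members that appear in more than 1 list are drawn in each; the 5 called members lie between 0.76 and 1.14.

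Over the 12 libraries, which share group differences and batch, the genes whose log2 levels most resembled Nkd2 were Stambpl1, Vav3 and Postn (Pearson r = 0.94 each); Postn, which encodes the matrix protein periostin, had group means of 399 FPKM in control vehicle, 539 in control BRAFi, 128 in PD-L2 vehicle and 377 in PD-L2 BRAFi tumors. Among the members, Wnt5a was most like Nkd2 (r = 0.82), ranking 46 of 12116 genes. For Wnt5a the most similar genes were Parp8 (0.93), Fam126a (0.92) and F2r (0.92). Axin2 was closest to Cadps (0.96), Rnd3 (0.94) and Serinc5 (0.92), and Apcdd1 to Myo10 (0.92), Bace1 (0.91) and Smad5 (0.91). Lef1 was closest to Pla2g7 (0.96), whose group means were 217 and 195 FPKM with vehicle and 494 and 521 FPKM with BRAFi, followed by Has2os and 1700071M16Rik (0.95 each). Tcf7 was closest to Ano6 and Rai14 (0.95 each) and E430025E21Rik (0.94), Tcf7l2 to Rab36 (0.98), Zfp512 (0.94) and Hvcn1 (0.93), and Ctnnb1 to Pde4dip (0.97), Rapgef4 (0.96) and Disp2 (0.95). Tcf7 and Nkd2 were nearly unrelated (r = 0.08). These are descriptions over 12 libraries and carry no test.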

How the data were processed

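Messenger RNA of 12 YUMM1.7 tumors was analysed as FPKM values, which the authors deposited as 1 table. Per the labels' protocols, libraries were unstranded TruSeq v2 with poly(A) selection; the labels give paired-end and the series design single-end reads of 50 bp. TopHat, TopHat2, Cuffnorm and Cuffdiff on the mm9 build are listed in the submitters' processing notes without their roles; no version or setting was found in the sources used. Without strand, overlapping genes cannot be told apart.

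Values were taken as log2(FPKM + 1) for the genes averaging 1 FPKM or more, and fitted with limma 3.58.1 in R 4.3.3 (4 group means, empirical Bayes with a trend; checked on simulated data). There were 7 comparisons: 4 between groups, the interaction and 2 averages. An exact 0 can be a failed estimate. Transcript lengths are the longest per gene in GENCODE vM21, used by symbol because the builds differ; promoters are from RefSeq. Nearest genes were the 3 highest Pearson correlations; from each pathway list at most 4 called genes are named (2 uncalled where none passed). Low values of 935 genes showed no whole-read steps (0.068 to 0.13 of genes at 1 ratio, within 0.1 log2). Members, lists and tests were chosen with earlier results of these data known. Alternatives changed the pseudocount, filter, scaling, block, variance model, library weights, length trend or libraries.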

Additional observations from a re-analysis of the deposited data

How the results depend on the processing

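The rises with BRAFi averaged over backgrounds of Nkd2, Lef1 and Wnt5a passed in all 24 alternatives; over all alternatives that were not left-out libraries, 4 to 6 members passed that average. In control tumors the 2 calls became 0 without a filter, with the length trend removed (with or without the replicate block) and in a fit of the 2 groups alone, and 1 with quantile normalization, median-ratio scaling or no variance trend. In PD-L2 tumors the 1 call became 3 with array weights and 0 without a filter, with the length trend removed plus the block, and in the 2-group fit. Between PD-L2 and control under vehicle 0 became 1 with a pseudocount of 0.1, no filter, a filter of 5 FPKM, quantile normalization or the 2-group fit, and 2 with array weights. In the PD-L2 average 1 became 2 with array weights and 0 under the replicate block, alone or with the length trend removed. The causes were not tested. Leaving out 1 library at a time gave 0 to 3 members with BRAFi in control tumors, 0 to 1 in PD-L2 tumors, 0 to 1 for PD-L2 under vehicle, 0 for PD-L2 under BRAFi and the interaction, 3 to 6 for the BRAFi average and 0 to 1 for the PD-L2 average. The fall of Nkd2 in the PD-L2 average passed in 14 of 24 and ended without any control vehicle tumor, control BRAFi 1 or 2, PD-L2 vehicle 2 or 3, or PD-L2 BRAFi 1, at -1.57 to -1.29.

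The labels state no pairing of tumors by replicate number. Deviations from the group means correlated over 0.1 in 6 of 18 same-numbered pairs (-0.371 to 0.242). The median correlation was -0.00199 in these pairs and -0.00839 in 36 pairs with other numbers, and 5 of 12 libraries correlated best with their own number. With 3 tumors per group, these values cannot exclude a pairing. With the replicate block the Nkd2 fall averaged -1.43 (limma adjusted p = 0.0703), and the block changed no other call of a member.

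Counting as a change of sign only a move of more than 1 SE, these uncalled values turned: Apcdd1 with BRAFi in control tumors (-0.07 with the length trend removed, with and without the block); Tcf7l2 with BRAFi in PD-L2 tumors (-0.17 with array weights, -0.16 without PD-L2 BRAFi tumor 2, left-out libraries ranging from -0.16 to 0.26), between PD-L2 and control under BRAFi (-0.33 and -0.26, left-out libraries -0.26 to 0.17) and in the interaction (-0.12 with array weights); Lef1 between PD-L2 and control under BRAFi (-0.12 without PD-L2 BRAFi tumor 3, left-out libraries -0.12 to 0.25); and Vangl2 in the BRAFi average (-0.02 with the length trend removed, with and without the block). Rescaling all libraries to 1 FPKM sum moved the median gene to 0.17 with BRAFi in control tumors, where 1198 genes rose and 241 fell instead of 425 and 474, and to 0.10 in the BRAFi average, with 2207 and 773 instead of 1626 and 1362; no call of a member in these comparisons was lost. Unknown depth limits the low genes Axin2 and Nkd1.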

Other observations

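The Wnt genes Wnt10a and Notum, chosen after their values were seen, ran opposite to Nkd2 and Wnt5a under vehicle. Other listed genes ran the same way as Nkd2. Jup was at 2.40 to 3.62 FPKM in PD-L2 vehicle and 5.72 to 19.3 FPKM in the other tumors. That order, seen in 1.88% of tested genes, was also chosen after the values were seen. The PD-L2 difference under vehicle was -1.17 ± 0.29 for Jup (limma adjusted p = 0.25) and -0.80 ± 0.37 for Wnt7b (limma adjusted p = 0.468). Wnt10a, a ligand of the canonical branch, was at 1.42, 0.894 and 0.836 FPKM in control vehicle and at 8.62, 6.05 and 5.01 FPKM in PD-L2 vehicle tumors. With BRAFi it was at 1.95, 9.52 and 5.24 FPKM in control and at 2.61, 0.404 and 2.83 FPKM in PD-L2 tumors. The vehicle groups did not overlap, and the fitted difference was 1.87 ± 0.47 (limma adjusted p = 0.251); its interaction was -2.97 ± 0.67, with an unadjusted p of 0.00105 and a limma adjusted p of 0.7. Notum, a secreted enzyme that inactivates Wnt proteins, was at 5.24, 4.07 and 4.75 FPKM in control vehicle and at 14.1, 11.6 and 14.7 FPKM in PD-L2 vehicle tumors. Under BRAFi it was at 6.50, 23.8 and 4.14 FPKM in control and at 5.55, 2.86 and 3.75 FPKM in PD-L2 tumors. Its interaction was -2.34 ± 0.65, with an unadjusted p of 0.00425 and a limma adjusted p of 0.956. Neither Wnt10a nor Notum passed in any of the 7 comparisons. Control BRAFi tumor 2, the highest for both, was also the highest control tumor for Pdcd1lg2, at 3.54 FPKM. PD-L2 BRAFi tumors 1 and 3 held 176 and 171 FPKM of Pdcd1lg2, with Wnt10a at 2.61 and 2.83 FPKM and Notum at 5.55 and 3.75 FPKM. A link of either gene to Pdcd1lg2 was not tested.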
